A study of Homo sapiens with 6 samples.

Results

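The histone deacetylase genes HDAC1, HDAC2, HDAC3, HDAC4, HDAC5, HDAC6, HDAC7, HDAC8, HDAC9 and HDAC11 were described in bulk RNA-seq of human embryonic stem (ES) cells, because valproic acid (VPA), an inhibitor of several of the enzymes they encode, was among the agents used to turn primed cells into naive cells. Members were chosen by gene name, and they are 10 of 48183 gene names in the table. Each member has 1 identifier, and its count was used as deposited. The comparison asks how these genes were expressed in naive cells relative to the primed cells they came from, and whether cells induced with the inhibitor differed from naive cells induced in other ways.

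All 6 libraries came from an ES cell line named H1 in the labels and H9 in the text of the study, carrying a piggyBac EOS reporter, in which a distal OCT4 enhancer drives GFP. The AICAR naive cells (2 libraries, called AICAR 1 and AICAR 2) were induced in PXGL medium with AICAR, an activator of the kinase AMPK, and are given as day 14 plus 14 or 15 passages, without it being stated which library is which. The CA-p38 naive cells (1 library) came from the CA-p38 EOS line, which carries in addition a doxycycline-inducible, constitutively active p38 kinase. Per the study's text they were induced with doxycycline in PXGL medium and then grown without doxycycline. They are given as day 7 plus 12 passages. The VPA naive cells (1 library) were induced with VPA in Ndiff227 medium with PD0325901 and LIF, and are given as day 9 plus 12 passages. Per the labels, converted cells were returned to PXGL (PD0325901, XAV939, Go6983 and LIF), in which VPA is not listed, and naive cells grew on mouse feeder cells. The study's text adds that AICAR was first lowered and then removed, and that CA-p38 cells were later moved off feeders, without saying at which passage the sequenced cells stood in that respect. Naive cells were sorted for CD75 and SUSD2. The primed cells (1 library of the EOS line and 1 of the CA-p38 EOS line) received no inducer and were not sorted. They grew on Matrigel in StemFit AK02N medium, with no feeder cells named. State, medium, substrate and sorting therefore cannot be told apart here, and no source says whether the libraries came from separate cultures, so p-values measure only the spread between these samples.

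Histone deacetylases remove acetyl groups from lysines of histones and other proteins, which usually makes chromatin less accessible. Class I enzymes (HDAC1, HDAC2, HDAC3 and HDAC8) are nuclear, and the first 3 of them act in large corepressor complexes. Class IIa enzymes (HDAC4, HDAC5, HDAC7 and HDAC9) have little catalytic activity of their own, bind MEF2 transcription factors, and leave the nucleus when kinases phosphorylate them and 14-3-3 proteins hold them in the cytoplasm. HDAC6, of class IIb, deacetylates tubulin in the cytoplasm, and HDAC11 is the sole class IV enzyme. VPA inhibits the class I and class IIa enzymes and hardly acts on HDAC6. RNA levels do not measure enzyme activity.

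Library totals ran from 46823699 counts (AICAR 2) to 54277064 counts (AICAR 1). The AICAR pair, with a mean chi-square of 21.2 per gene between them, was kept as separate replicates. The labels fitted the markers. SUSD2, among the naive markers (mean 543 CPM in naive and 2.15 CPM in primed cells), was also used to sort the naive cells. Its part of this check is therefore not independent of the sorting. The summed level of 6 naive markers was 1854 to 2155 CPM (counts scaled to library size with TMM) in naive libraries and 7.67 to 9.88 CPM in primed libraries, while 5 primed markers summed to 30.9 to 42.5 CPM and 2372 to 2904 CPM. Fibroblast transcripts (8) were listed as possible marks of feeder cells, which were mouse cells, while reads were mapped to human sequence. These transcripts summed to 117 to 159 CPM in naive libraries and 376 to 392 CPM in primed libraries, for which no feeder cells were named. FBLN1, COL1A2 and COL1A1 made up most of that sum. Of the 8, 5 were called lower in naive cells and 0 higher. COL3A1 (mean 8.09 CPM in naive and 3.47 CPM in primed cells, 16.6 CPM in CA-p38 naive), DCN and LUM had higher means in naive cells. DCN was at most 1.21 CPM and LUM at most 1.17 CPM in any library. Neural markers (4) summed to 90.4 to 93.9 CPM in naive and 434 to 515 CPM in primed libraries. Nearly all of that was NES (mean 89.9 CPM in naive and 467 CPM in primed cells), with PAX6 and SOX1 at most 1.68 CPM anywhere. Trophectoderm markers (4) went the other way, with 8.82 to 12.5 CPM in naive and 3.8 to 4.93 CPM in primed libraries. Of these, CDX2 (log2 fold change 7.17, SE 1.37) and KRT7 (1.08) were called higher in naive cells, and 0 were called lower. CDX2 was at 1.82 CPM in naive and 0.0101 CPM in primed cells, so the size of its change rests on a primed level near 0. The part of such cells in the results for the deacetylases was not tested. Bulk counts cannot tell fewer cells of a type from less RNA per cell.

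Naive cells had less HDAC2, HDAC3, HDAC4 and HDAC7 and more HDAC1, HDAC5 and HDAC8 than primed cells. The falls ran from 1.92-fold (HDAC2) to 3.77-fold (HDAC7), and the rises from 1.34-fold (HDAC1) to 1.51-fold (HDAC5). HDAC6, HDAC9 and HDAC11 did not pass the test. In edgeR's quasi-likelihood test of 4 naive against 2 primed libraries, with Benjamini-Hochberg adjustment over 26497 gene names and a threshold of 0.05, all 10 members passed the filter on low counts, 3 were called higher in naive cells and 4 lower. Of all names tested, 26% were called higher and 27% lower, so a member called in either direction is no rarity in this comparison. The median log2 fold change of the members was −0.72, beside 0.11 over all names tested. That median lies between HDAC9 (−0.84) and HDAC11 (−0.61), neither of which was called, and members moved in both directions.

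**Figure D1:**
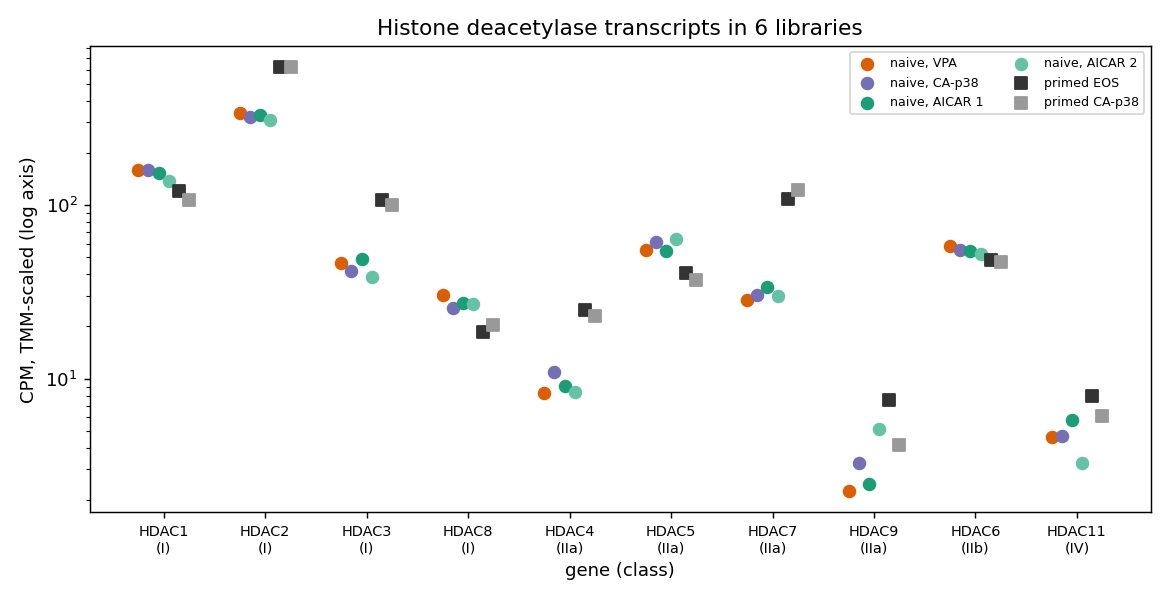
Level of each deacetylase gene in every library, in TMM-scaled CPM on a log10 axis, with genes grouped by class and 1 point per library. The naive points of HDAC7 lie between 28.4 and 33.7 CPM and the primed points at 108 and 123 CPM, while naive and primed points of HDAC9 overlap.

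The upstream sequences of HDAC1, HDAC2 and HDAC3, the class I subunits of corepressor complexes, and of HDAC7, the member furthest from its primed level, are shown to set them side by side. Each line gives the 250 bases before the RefSeq start of the gene (GRCh38.p14), read 5′ to 3′ on the strand of the gene, with capitals for matches to the GC box (GGGCGG, bound by SP factors) and the CCAAT box, searched on both strands with overlapping matches counted.
HDAC1: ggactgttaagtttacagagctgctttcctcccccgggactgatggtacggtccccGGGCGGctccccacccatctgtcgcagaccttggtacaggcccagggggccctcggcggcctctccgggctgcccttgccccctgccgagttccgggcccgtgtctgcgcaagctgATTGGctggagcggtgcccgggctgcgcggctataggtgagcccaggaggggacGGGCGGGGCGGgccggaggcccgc
HDAC2: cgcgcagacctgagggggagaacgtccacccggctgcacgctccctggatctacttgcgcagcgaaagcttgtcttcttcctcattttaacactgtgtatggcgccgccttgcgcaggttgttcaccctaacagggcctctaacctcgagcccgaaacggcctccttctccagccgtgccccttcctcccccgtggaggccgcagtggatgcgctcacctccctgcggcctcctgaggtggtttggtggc
HDAC3: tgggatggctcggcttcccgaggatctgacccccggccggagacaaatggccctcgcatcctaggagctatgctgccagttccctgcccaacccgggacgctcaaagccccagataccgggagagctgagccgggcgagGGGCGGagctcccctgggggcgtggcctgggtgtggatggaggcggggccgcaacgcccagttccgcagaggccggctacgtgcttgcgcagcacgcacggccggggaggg
HDAC7: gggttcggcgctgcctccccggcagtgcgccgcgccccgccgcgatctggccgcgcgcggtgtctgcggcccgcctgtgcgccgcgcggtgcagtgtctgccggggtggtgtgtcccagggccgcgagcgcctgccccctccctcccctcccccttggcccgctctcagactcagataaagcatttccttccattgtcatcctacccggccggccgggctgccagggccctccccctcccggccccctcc
The windows are chr1:32291833-32292082 (plus strand) for HDAC1, chr6:113971149-113971398 (minus) for HDAC2, chr5:141636850-141637099 (minus) for HDAC3 and chr12:47819904-47820153 (minus) for HDAC7. All of them are rich in CpG, with 21 in HDAC1, 18 in HDAC2, 22 in HDAC3 and 28 in HDAC7, beside a median of 11 over 27305 promoters. HDAC1 holds 3 GC boxes, of which 2 overlap, and 1 CCAAT box, HDAC3 holds 1 GC box, and HDAC2 and HDAC7 hold neither motif. A GC box occurs in 42.3% of all promoters of this length and a CCAAT box in 33.0%. These matches are a description of the letters only. The windows of HDAC1 and HDAC3 adjoin the GENCODE gene intervals given below, while those of HDAC2 and HDAC7 lie inside theirs. The positions set side by side are therefore not alike.

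HDAC1 and HDAC2 are close paralogs that form the catalytic pair of the SIN3, NuRD and CoREST complexes. HDAC1 (ENSG00000116478, chr1:32292083-32333635, plus strand, GENCODE release 44 on GRCh38) measured 159 CPM in VPA, 159 CPM in CA-p38, 154 CPM in AICAR 1 and 138 CPM in AICAR 2, against primed levels of 121 CPM (EOS) and 107 CPM (CA-p38). Every naive library was above both primed libraries. The naive mean of 152 ± 9.83 CPM (SD, n = 4) exceeded the primed mean of 114 ± 9.78 CPM (SD, n = 2) by 0.42 on the log2 scale (SE 0.10, edgeR adjusted p = 0.00493). This call was lost without primed CA-p38 (log2 fold change 0.34, edgeR adjusted p = 0.0601).

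HDAC2 (ENSG00000196591, chr6:113933028-114011308, minus strand) measured 340 CPM in VPA, 321 CPM in CA-p38, 331 CPM in AICAR 1 and 309 CPM in AICAR 2, and 624 CPM in each primed library. The naive libraries lay close together and far below the primed ones, the opposite order from HDAC1. The log2 fold change was −0.94 (SE 0.09, 95% interval −1.13 to −0.75, edgeR adjusted p = 1.06e-06). The antisense transcript HDAC2-AS2, which shares 69 bases (0.5%) of the exons of HDAC2, was called in the other direction, from 6.95 ± 0.992 CPM (SD, n = 2) in primed to 15.3 ± 1.98 CPM (SD, n = 4) in naive cells (log2 fold change 1.14, edgeR adjusted p = 0.000265).

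HDAC3 is the catalytic subunit of the NCoR/SMRT corepressor. HDAC3 (ENSG00000171720, chr5:141620876-141636849, minus strand) measured 46.2 CPM in VPA, 41.7 CPM in CA-p38, 48.8 CPM in AICAR 1 and 38.6 CPM in AICAR 2, against primed levels of 107 CPM (EOS) and 99.6 CPM (CA-p38). The groups did not overlap, and the naive mean was 2.36-fold lower (log2 fold change −1.24, SE 0.12, edgeR adjusted p = 1.56e-06). A noncoding transcript on the opposite strand shares 426 bases (9.2%) of its exons, and another shares 963 bases (9.7%) of the exons of HDAC7. On the same strand, a protein-coding gene shares 1193 bases (5.2%) of the exons of HDAC8, which counting by strand would not separate.

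HDAC8, a class I enzyme that acts outside those complexes and deacetylates the cohesin subunit SMC3, lies on the X chromosome (ENSG00000147099, chrX:72329516-72573101, minus strand). It measured 30.4 CPM in VPA, 25.7 CPM in CA-p38, 27.2 CPM in AICAR 1 and 27 CPM in AICAR 2, against primed levels of 18.6 CPM (EOS) and 20.3 CPM (CA-p38). Every naive library was above both primed libraries, by 0.50 on the log2 scale (SE 0.14, edgeR adjusted p = 0.00798). Without primed EOS the call was lost (log2 fold change 0.43, edgeR adjusted p = 0.0844).

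HDAC4 and HDAC7, both class IIa, had lower levels in naive cells. HDAC4 (ENSG00000068024, chr2:239048168-239401654, minus strand) measured 8.27 CPM in VPA, 11 CPM in CA-p38, 9.13 CPM in AICAR 1 and 8.36 CPM in AICAR 2, against primed levels of 24.8 CPM (EOS) and 23.1 CPM (CA-p38). Its log2 fold change was −1.38 (SE 0.17, edgeR adjusted p = 1.23e-05). HDAC7 (ENSG00000061273, chr12:47782722-47833132, minus strand), best known for its roles in endothelium and thymocytes, measured 28.4 CPM in VPA, 30.2 CPM in CA-p38, 33.7 CPM in AICAR 1 and 30.1 CPM in AICAR 2, against primed levels of 108 CPM (EOS) and 123 CPM (CA-p38). Its log2 fold change of −1.91 (SE 0.12, 95% interval −2.17 to −1.66, edgeR adjusted p = 1.73e-08) was the furthest from 0 among the members. For both genes the highest naive library was well below the lowest primed library.

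HDAC5, the class IIa paralog of HDAC4, moved the other way. HDAC5 (ENSG00000108840, chr17:44076746-44123702, minus strand) measured 55.5 CPM in VPA, 61.3 CPM in CA-p38, 54.6 CPM in AICAR 1 and 64.1 CPM in AICAR 2, against primed levels of 40.9 CPM (EOS) and 37.1 CPM (CA-p38). All naive libraries were above both primed ones (log2 fold change 0.60, SE 0.12, edgeR adjusted p = 0.00112). G6PC3, on the opposite strand, shares 1826 bases (24%) of the exons of HDAC5, and whether the counting used strand is not stated. G6PC3 averaged 74.2 ± 5.65 CPM in naive cells (SD, n = 4) and 85.7 ± 6.88 CPM in primed cells (SD, n = 2), with a log2 fold change of −0.21 (edgeR adjusted p = 0.137).

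HDAC9 (ENSG00000048052, chr7:18086949-19002416, plus strand), the remaining class IIa gene, was the least even member. It measured 2.25 CPM in VPA, 3.25 CPM in CA-p38, 2.47 CPM in AICAR 1 and 5.13 CPM in AICAR 2, against primed levels of 7.58 CPM (EOS) and 4.15 CPM (CA-p38). AICAR 2 was above primed CA-p38, so the groups overlapped, and the highest naive library was 2.28 times the lowest, compared with 1.1 times for HDAC2. The log2 fold change of −0.84 (SE 0.36, 95% interval −1.62 to −0.06) had an edgeR adjusted p = 0.0602. The value rested on single libraries, with −0.36 without primed EOS (edgeR adjusted p = 0.551), −1.14 without AICAR 2 (edgeR adjusted p = 0.0112) and −1.20 without primed CA-p38 (edgeR adjusted p = 0.0317).

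HDAC6 (ENSG00000094631, chrX:48801377-48824982, plus strand), the tubulin deacetylase, varied least between the states. It measured 58.3 CPM in VPA, 55.2 CPM in CA-p38, 54.6 CPM in AICAR 1 and 52.0 CPM in AICAR 2, against primed levels of 48.6 CPM (EOS) and 47.1 CPM (CA-p38). The naive libraries were all above the primed ones, but the log2 difference of 0.20 (SE 0.11, 95% interval −0.04 to 0.44) did not pass (edgeR adjusted p = 0.147). Scaled by library totals it was 0.30 (edgeR adjusted p = 0.0313).

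HDAC11 (ENSG00000163517, chr3:13479724-13506424, plus strand), which removes long fatty acyl groups from lysines, measured 4.6 CPM in VPA, 4.67 CPM in CA-p38, 5.76 CPM in AICAR 1 and 3.28 CPM in AICAR 2, against primed levels of 7.90 CPM (EOS) and 6.07 CPM (CA-p38). Naive libraries were below primed ones, with a narrow gap between AICAR 1 and primed CA-p38. The log2 fold change was −0.61 (SE 0.26, 95% interval −1.18 to −0.04, edgeR adjusted p = 0.0629), and it passed without AICAR 1 (−0.75, edgeR adjusted p = 0.0341).

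Counted by overlap alone, 4 members had every naive library above both primed libraries, as did 32.9% of all names tested, and 5 had every naive library below both, as did 32.1%. HDAC9 overlapped.

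**Figure D2:**
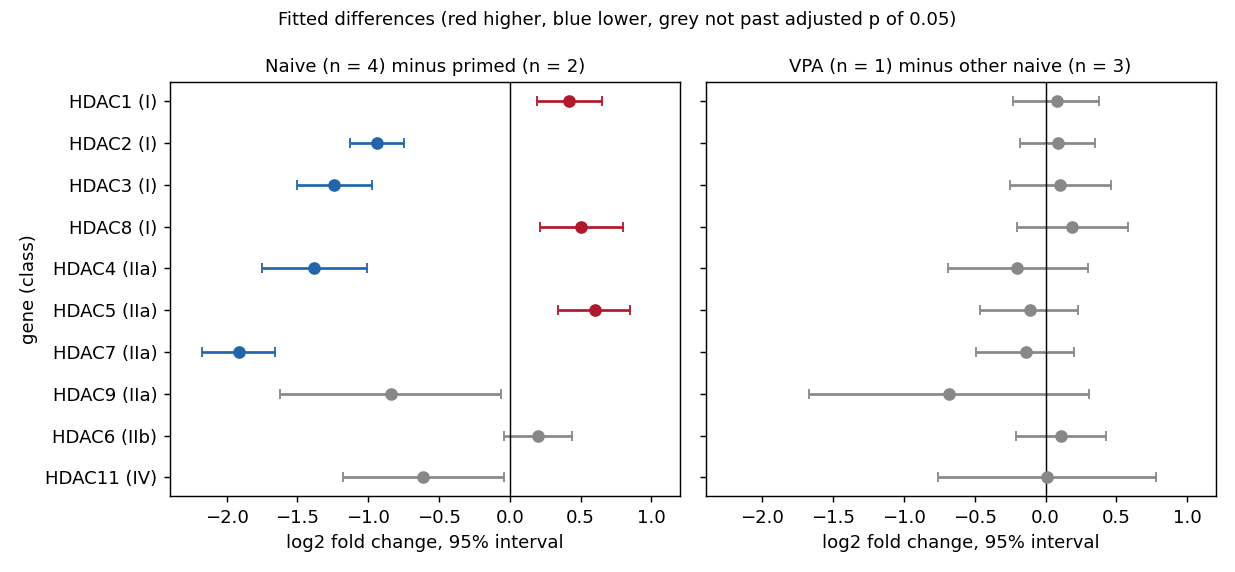
Fitted log2 differences of each deacetylase gene with 95% intervals, for naive minus primed and for VPA naive minus the other naive libraries. The first set reaches −1.91 (HDAC7) and 0.60 (HDAC5), and the interval of every member in the second set includes 0.

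Because paralogs moved in opposite directions, their proportions were compared within each library. These ratios were chosen after the levels had been seen, and with 4 and 2 libraries the smallest two-sided p of an exact permutation test is 0.0667. HDAC2 over HDAC1 in CPM was 2.14 in VPA, 2.02 in CA-p38, 2.15 in AICAR 1 and 2.23 in AICAR 2, against primed values of 5.17 (EOS) and 5.83 (CA-p38). HDAC7 over HDAC5 was 0.512 in VPA, 0.493 in CA-p38, 0.617 in AICAR 1 and 0.470 in AICAR 2, against primed values of 2.63 (EOS) and 3.32 (CA-p38). Neither ratio overlapped between states. This was fixed by the levels above, since every naive library had less HDAC2 and HDAC7 and more HDAC1 and HDAC5 than both primed ones. The exact permutation p = 0.0667 of each was thus bound to be the smallest possible (0.0723 after Benjamini-Hochberg adjustment over 13 such measures). It adds no support to the calls of the single genes. HDAC3 over HDAC1 was 0.287 ± 0.0231 (SD, n = 4) in naive and 0.908 ± 0.0315 (SD, n = 2) in primed cells. Its exact permutation p was the same, and was fixed in the same way.

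The summed CPM of the class I genes was 549 ± 26.7 (SD, n = 4) in naive and 861 ± 14.1 (SD, n = 2) in primed cells. Within that sum HDAC1 took 27.8% ± 0.898 of the CPM in naive and 13.2% ± 0.92 in primed cells, and HDAC2 took 59.2% ± 0.691 and 72.5% ± 1.15 (SD, same n). HDAC3 took 7.97% ± 0.539 in naive and 12% ± 0.419 in primed cells, and HDAC8 took 5.03% ± 0.3 and 2.26% ± 0.184. The class I pool was thus smaller in naive libraries and held a larger share of HDAC1. Class IIa CPM summed to 102 ± 6.04 (SD, n = 4) in naive and 184 ± 4.74 (SD, n = 2) in primed cells. HDAC5 took 58.8% of it in VPA, 58.0% in CA-p38, 54.7% in AICAR 1 and 59.5% in AICAR 2, against primed values of 22.6% (EOS) and 19.8% (CA-p38). HDAC7 took 30.1% ± 2.58 in naive and 62.6% ± 4.37 in primed cells, so the leading class IIa transcript by counts was HDAC5 in the former and HDAC7 in the latter. The share of HDAC9 overlapped between states, at 3.17% ± 1.1 and 3.20% ± 1.4. These sums and shares weigh long transcripts more than short ones.

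**Figure D3:**
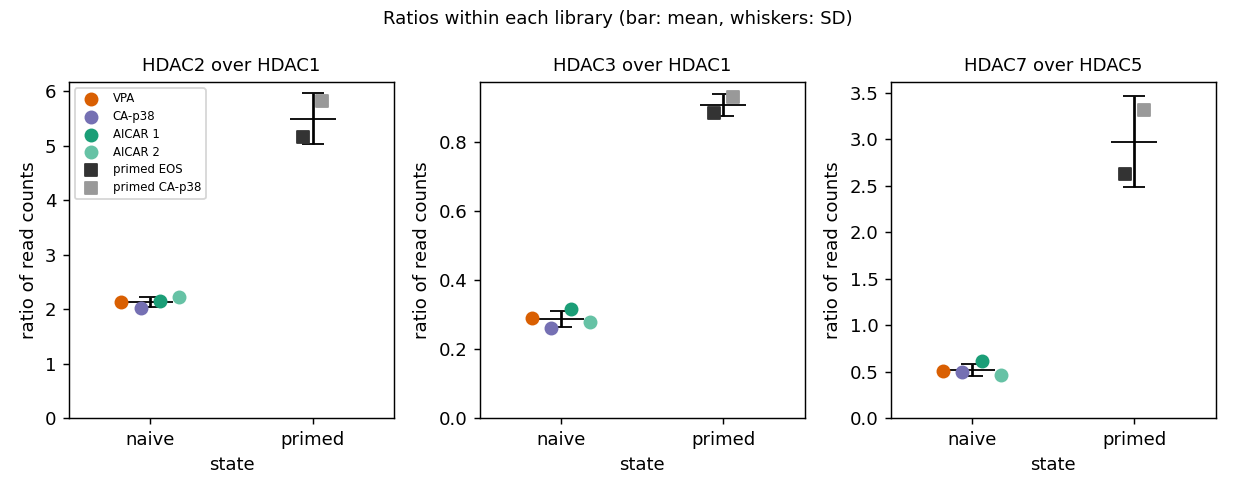
Ratios of CPM between deacetylase paralogs (HDAC2 over HDAC1, HDAC3 over HDAC1, HDAC7 over HDAC5), with 1 point per library and bars at the mean ± SD of naive (n = 4) and primed (n = 2) libraries. The ratio of HDAC2 to HDAC1 lies between 2.02 and 2.23 in naive libraries and at 5.17 and 5.83 in primed libraries, and the ratio of HDAC7 to HDAC5 between 0.470 and 0.617 in naive libraries and at 2.63 and 3.32 in primed ones.

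Levels were compared between genes per kilobase of merged exons. In naive cells the order of mean levels was HDAC1 (38.4 CPM per kb), HDAC2 (21.2), HDAC3 (9.51), HDAC5 (7.73), HDAC6 (3.8), HDAC7 (3.08), HDAC8 (1.21), HDAC11 (0.875), HDAC4 (0.647) and HDAC9 (0.189). HDAC3 overlapped HDAC5 across the naive libraries, and HDAC11 overlapped HDAC4. In primed cells the order was HDAC2 (40.7 CPM per kb), HDAC1 (28.7), HDAC3 (22.4), HDAC7 (11.6), HDAC5 (5.12), HDAC6 (3.31), HDAC4 (1.69), HDAC11 (1.34), HDAC8 (0.850) and HDAC9 (0.339), and no neighbours overlapped. HDAC7 was thus above HDAC5 and HDAC6 in primed cells and below both in naive cells. Part of this order rests on the length used, since the merged exons of HDAC2 span 15333 bases and those of HDAC8 22888 bases. Per kilobase of coding sequence HDAC2 led in both states (222 CPM per kb in naive and 426 in primed cells), ahead of HDAC1 (105 and 78.8). HDAC9 was lowest under every length tried.

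Each induced library was also set against the primed library of its own line. The folds of HDAC7 were 0.264 in VPA, 0.245 in CA-p38, 0.313 in AICAR 1 and 0.280 in AICAR 2. HDAC2 was at 0.544, 0.515, 0.529 and 0.494 of its parental level, and HDAC3 at 0.432, 0.418, 0.456 and 0.361, in the same order of libraries. HDAC1, HDAC5, HDAC6 and HDAC8 were above their parental level in every induced library, and the other 6 members were below it. The VPA and AICAR folds share primed EOS as denominator. Names with every naive library above both primed ones (32.9% of all tested) or below both (32.1%) show such agreement by necessity. The full share of names with such agreement was not computed, so it is not read as particular to these genes. HDAC9 split the libraries, at 0.297 (95% counting interval 0.240 to 0.367) in VPA and 0.325 (0.265 to 0.397) in AICAR 1, but 0.782 (0.633 to 0.965) in CA-p38 and 0.678 (0.576 to 0.796) in AICAR 2. The CA-p38 fold is taken over a lower primed level (4.15 CPM) than the other folds (7.58 CPM). Naive CA-p38 itself, at 3.25 CPM, was below AICAR 2 (5.13 CPM). Each line has 1 parental library, and these intervals cover counting error only.

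**Figure D4:**
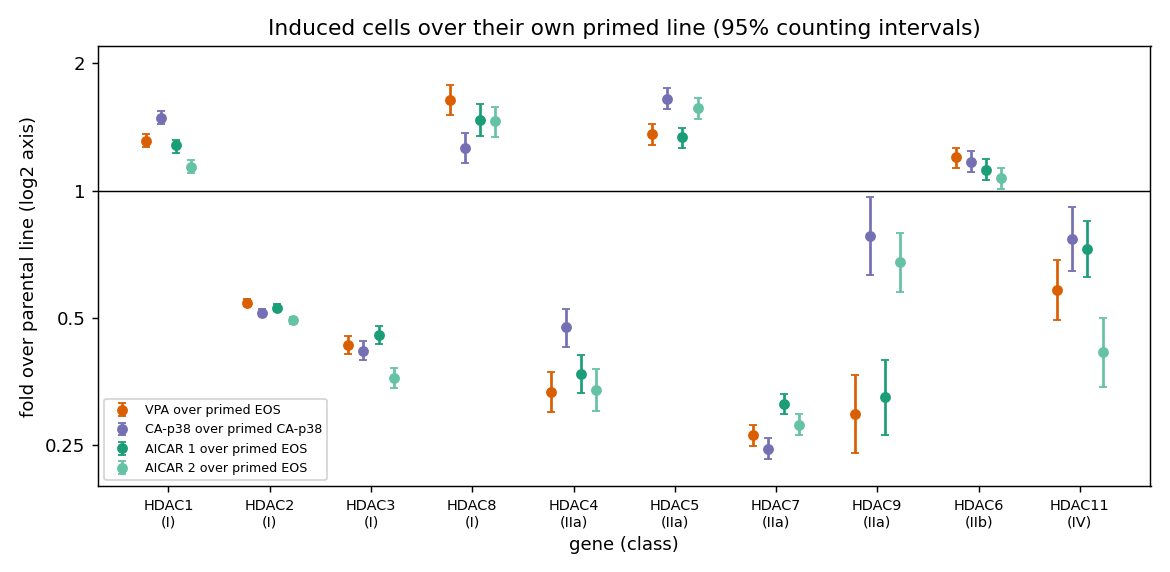
Fold of each deacetylase gene in an induced naive library over the primed library of the same line, on a log2 axis, with 95% counting intervals as bars. The 4 points of HDAC1, HDAC5, HDAC6 and HDAC8 lie above 1 and those of the other genes below, with the points of HDAC9 spread from 0.297 to 0.782.

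Cells induced with the deacetylase inhibitor did not differ detectably from other naive cells in any of these genes. In the fit with VPA naive, other naive and primed libraries as 3 groups, edgeR called 0 of 10 members between VPA and the other naive libraries, and 0.0113% of all names tested (3 of 26497, NBEA, RNA5-8SN1 and RNA5-8SN3, named here because they are so few). At an unadjusted p below 0.05 there were 0 members and 7.56% of all names. DESeq2 and limma-voom called 0 members too, and 84 and 16 names in all. There is 1 VPA library, which is assumed to vary like the other groups.

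For HDAC1, HDAC2, HDAC3, HDAC5, HDAC6 and HDAC7 the 95% intervals of the log2 difference lay between −0.49 and 0.46. HDAC1, for instance, differed by 0.08 (SE 0.14, edgeR adjusted p = 0.933), HDAC2 by 0.09 (SE 0.12, edgeR adjusted p = 0.904) and HDAC7 by −0.14 (SE 0.16, edgeR adjusted p = 0.874). The intervals were wider for HDAC8 (−0.20 to 0.58), HDAC4 (−0.69 to 0.30), HDAC11 (−0.76 to 0.78) and HDAC9 (−1.67 to 0.31). For HDAC9 the data thus allow a level in VPA cells up to 3.18-fold lower than in other naive cells. VPA was above the other 3 naive libraries for HDAC2, HDAC6 and HDAC8 and below them for HDAC4, HDAC7 and HDAC9, and of all names tested 55.0% had VPA outside the range of the others. The median difference over the members was 0.04, beside −0.01 over all names.

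The partners of the deacetylases and other related genes were read from 12 lists of 101 genes, all of which were tested. The related genes are sirtuins, acetyltransferases, BET readers and genes known to rise under deacetylase inhibitors. In naive against primed cells 24 rose and 48 fell, and 71.3% were called in all, beside 26% of all names called higher and 27% called lower. The genes were chosen for their known links to deacetylases, and no test compared the lists with other genes.

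In the SIN3 complex, which carries HDAC1 and HDAC2, 3 of 16 subunits rose and 9 fell, with a list median log2 fold change of −0.40. RBBP7, a histone chaperone shared with NuRD, fell from 265 to 77.2 CPM (log2 fold change −1.78, edgeR adjusted p = 1.09e-08), and the subunits SAP30 (−1.22) and SINHCAF (−1.13) fell with it. BRMS1L (0.66), SAP18 (0.65) and the chromatin reader ING2 (0.50) rose. In NuRD, which joins HDAC1 and HDAC2 to a nucleosome remodeller, 3 of 13 rose and 8 fell (median −0.63). The remodeller CHD4 fell from 646 to 255 CPM (log2 fold change −1.34, edgeR adjusted p = 1.12e-07), while MBD3 rose from 84.3 to 184 CPM (1.13, edgeR adjusted p = 1.75e-06).

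In CoREST, which couples HDAC1 and HDAC2 to the demethylase KDM1A, 2 of 10 rose and 6 fell (median −0.55). RCOR2 fell from 126 ± 13.8 CPM (SD, n = 2) to 8.01 ± 0.362 CPM (SD, n = 4), a log2 fold change of −3.98 (edgeR adjusted p = 5.25e-11), and its paralog RCOR1 rose from 39.0 to 79.0 CPM (1.02, edgeR adjusted p = 6.72e-06). In NCoR/SMRT, the complex of HDAC3, 1 of 5 rose and 2 fell (median −0.18). Its subunit TBL1X fell from 96.4 to 17.9 CPM (−2.43, edgeR adjusted p = 5.54e-09) and the related TBL1XR1 rose from 66.2 to 89.3 CPM (0.43, edgeR adjusted p = 0.00707).

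MiDAC, a complex of HDAC1 or HDAC2 described in dividing cells, had 2 of 4 subunits higher and 2 lower (median 0.15). TRERF1 fell from 49.8 to 0.519 CPM (log2 fold change −6.58, edgeR adjusted p = 4.85e-10) and MIDEAS rose from 20.1 to 41.4 CPM (1.04, edgeR adjusted p = 3.58e-05). ZNF541, a germ cell member, had 0 counts in both primed libraries and 11 to 104 counts in naive libraries, with 2.06 CPM in CA-p38 and 0.221 to 0.718 CPM in the others.

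Kinases and 14-3-3 proteins act on the class IIa enzymes. Of 16 kinases known to phosphorylate HDAC4, HDAC5, HDAC7 or HDAC9, 3 rose and 11 fell (median −0.99), and of 7 genes of 14-3-3 proteins, 1 rose and 5 fell (median −0.52). PRKD1 had 0 to 2 counts in naive and 452 to 462 counts in primed libraries, at least 160-fold lower in naive cells with 3 counts per library as the floor, and PRKAA2, a catalytic subunit of AMPK, fell from 12.6 to 0.106 CPM (log2 fold change −6.86, edgeR adjusted p = 1.67e-08). PRKAA1, the other catalytic subunit gene of AMPK, was at a higher level and was not called. It averaged 30.8 CPM in primed and 31.9 CPM in naive cells (0.05, edgeR adjusted p = 0.772). SIK1 rose from 6.08 to 23.4 CPM (1.94, edgeR adjusted p = 1.03e-06). Among 14-3-3 genes YWHAG fell by 1.04 on the log2 scale and SFN rose by 1.44. Of the 4 MEF2 genes, the partners of class IIa enzymes on DNA, MEF2B rose (1.62) and MEF2C fell (−1.33), with a list median of 0.25. Both were at low levels, MEF2B at 0.875 CPM in primed and 2.69 CPM in naive cells and MEF2C at 1.5 and 0.594 CPM. The more abundant MEF2A (21.2 CPM in primed and 27.4 CPM in naive cells) and MEF2D (34.8 and 38.2 CPM) were not called.

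Of 7 sirtuins, the NAD-dependent class III deacetylases, SIRT2 (log2 fold change 1.53) and SIRT7 (1.21) rose, and SIRT5 (−0.82) and SIRT3 (−0.68) fell (median 0.34). Of 12 acetyltransferases, which write the marks that deacetylases remove, 3 rose and 1 fell (median 0.16). NCOA3 rose from 35.9 to 189 CPM (2.40, edgeR adjusted p = 7.4e-09), NCOA1 from 30.7 to 134 CPM (2.13, edgeR adjusted p = 2.72e-06), and CREBBP fell from 160 to 77.6 CPM (−1.05, edgeR adjusted p = 0.000187). Of the 4 BET readers of acetylated lysines, BRDT, known from testis, rose from 0.244 to 130 CPM (9.05, edgeR adjusted p = 1.6e-11), and the list median was 0.11. Of 5 genes known to rise under deacetylase inhibitors, CDKN1A (2.70) and GADD45B (3.25) rose and TXNIP (−1.62) and CLU (−1.26) fell, with a list median of 0.20.

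Between VPA and the other naive libraries 0 of these 101 genes passed in edgeR, and 11 had an unadjusted p below 0.05, beside 7.56% of all names. limma-voom called 0 of them and DESeq2 called 1, the CoREST-associated gene ZMYM3, whose edgeR log2 difference was −0.55.

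**Figure D5:**
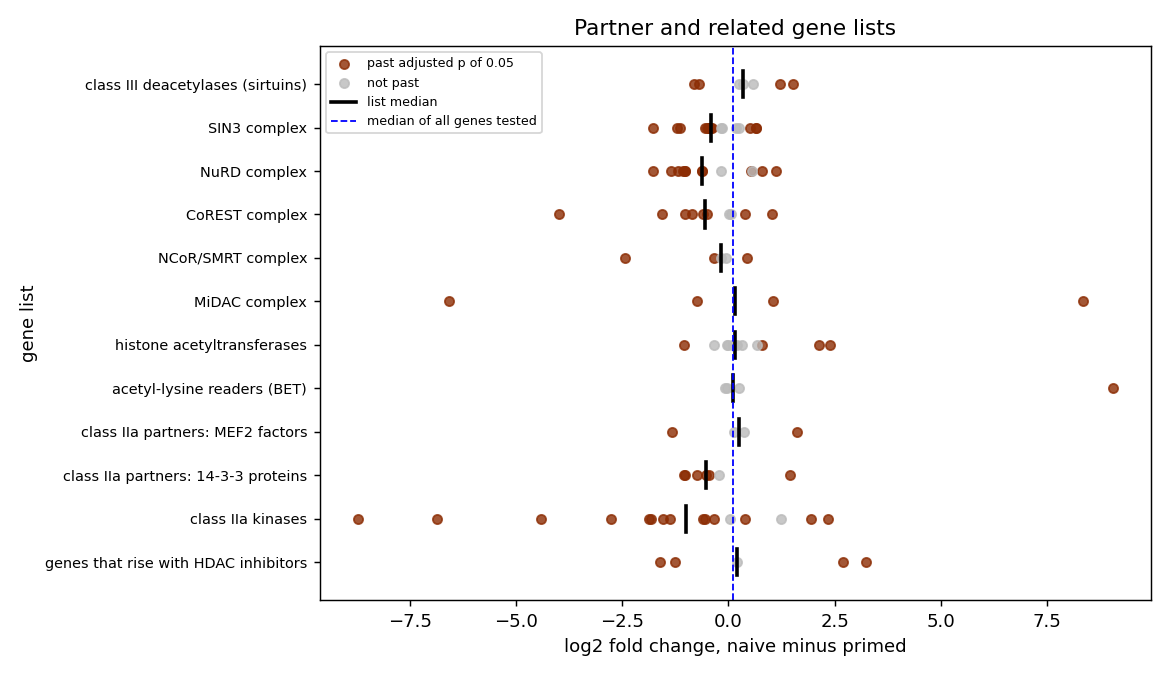
Log2 fold change (naive minus primed) of each gene in the 12 lists of partners and related genes, 1 row per list. A bar stands at the list median and a dashed line at the median of all names tested. The class IIa kinases have a median of −0.99, and single genes such as BRDT and TRERF1 lie far from the rest of their list.

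HDAC7 had the furthest change among the members, and the names most like it in pattern were found by the root mean square difference of centred log2 CPM over the 6 libraries, among 12553 names with a mean of at least 5 CPM. They were HIF1A (difference 0.060 in log2 CPM), at 76.1 CPM in naive cells and 284 CPM in primed ones, APC (0.061), with 13.6 and 52.1 CPM, and CBL (0.073), with 24.5 and 95 CPM. In all 21 names lay within 0.1 of HDAC7.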

How the data were processed

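Polyadenylated RNA of 6 libraries was sequenced from SMART-Seq Stranded libraries. Per the study's methods and processing notes, the authors trimmed adapters with Trim Galore 0.4.4 (cutadapt 1.15), mapped reads with Bowtie2 to Ensembl GRCh38 cDNA and noncoding RNA, and deposited raw counts per gene identifier. Reads shared by paralogs or overlapping genes can be split by this counting. The table holds 23 columns of other studies, not used here, and 26 spike-in rows (at most 1 count) were left out. Counts were summed per gene name. Groups came from the labels. Naive against primed, and VPA against other naive libraries, were tested with edgeR 4.0.16 in R 4.3.3 (glmQLFit, glmQLFTest, TMM, filterByExpr by state), and p-values were adjusted by Benjamini-Hochberg over every name tested. Tests were checked on simulated data with less spread between libraries than these counts had, so that check was easier than the real case. Alternatives were DESeq2 1.42.0 and its size factors, limma-voom 3.58.1, library totals, other count filters, identifiers not summed, the parental line as block, AICAR libraries taken as 1, and the removal of each library in turn. Lengths and positions came from GENCODE release 44, where a MANE Select length was added after seeing the data. Members and lists were chosen with earlier results of these data known. Named were all members, at most the 3 genes furthest up and the 3 furthest down of each list among those past the threshold, and the 3 names most like HDAC7. PRKAA1, MEF2A and MEF2D, which were not called, were named beside their called paralogs.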

Additional observations from a re-analysis of the deposited data

How the results depend on the processing

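Over 15 alternatives the members called higher in naive cells numbered 2 to 4 and those called lower 4 to 6, and 0 members were called for VPA against other naive cells in any of 12. With the parental line, which links naive to primed libraries, as a block, 3 were higher and 4 lower, and no member's call changed. HDAC2, HDAC3, HDAC4, HDAC5 and HDAC7 kept their direction and their call throughout, with log2 fold changes of −0.99 to −0.84, −1.31 to −1.14, −1.5 to −1.28, 0.53 to 0.70 and −2.02 to −1.81. HDAC9 passed in 7 alternatives (edgeR, DESeq2 or limma-voom adjusted p = 0.0112 to 0.551 over all) and HDAC11 in 5 (adjusted p = 0.0283 to 0.351), and the cause was not tested. For VPA against other naive cells the HDAC11 log2 difference changed sign to −0.0212 with DESeq2 size factors and in the DESeq2 test, −0.0046 with library totals, −0.0012 without the filter and −0.1801 without AICAR 2 (up to 0.2052 without other libraries), none of which passed, and the cause was not tested. Replicate numbers gave no further pairing, since the groups compared share fewer than 2 of them. Where 1 primed library is left, it is assumed to vary like the naive ones. HDAC9 and HDAC11 are the members at the lowest CPM.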
